A study of Caenorhabditis elegans with 2 samples.

Results

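The genes described here are 32 genes of intestinal fate and function of Caenorhabditis elegans, chosen by name and examined in peak lists for the zinc-finger transcription factor ZTF-11. All 32 were found in the annotation, among 19973 protein-coding genes of the nuclear chromosomes. Chromatin came from whole larvae of the first larval stage, male and female pooled, of strain OP236 (unc-119(ed3) III; wgIs236), in which a stably expressed transgene carried ZTF-11 with GFP and FLAG at its C-terminus. Both biological replicates formed 1 group sharing this genotype, so there was no second condition, and the antibody is labelled ztf-11. Each replicate and the pooled reads had a deposited list of 30000 regions of background and peaks together, nearly all 350 bp wide, and a thresholded consensus of 88 peaks was derived from these lists. Within whole larvae a region can come from any tissue, and the lists hold no measure of expression, so nothing here tells which cells the signal came from.

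The worm intestine descends from a single embryonic founder cell and is specified by a cascade of GATA transcription factors. END-1 and END-3 act briefly in the endoderm precursor and are followed by ELT-7 and ELT-2, which bind TGATAA sites and maintain expression of digestive enzymes, yolk proteins, transporters and stress genes for life. ZTF-11 belongs to the Myt1 family, known in neurogenesis for repressing genes of other fates, with AAGTT as the family's core word, so intestinal genes are a sample of non-neuronal genes.

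Regions lay at some intestinal genes and not at others, and none of the 32 genes was at a consensus peak. A promoter window is here the stretch beginning 1000 bp upstream and ending 500 bp downstream of any transcript start, and a gene counted when a region's summit lay inside. In the pooled list 11 of the 32 genes had a promoter summit, or 34.4% (95% interval 18.6% to 53.2%, exact binomial, covering the counting of genes only), against 45.1% of all protein-coding genes. The interval included the share over all genes. Gene bodies gave the same number, 11 of 32 genes, against 44.9% of all protein-coding genes. In the replicate 1 list 14 genes had a promoter summit (43.8%, 26.4% to 62.3%) where 44.7% of all genes had one, and 12 had a body summit where 44.6% of all genes had one. For replicate 2 the numbers were 10 promoters (31.2%) against 45.6%, and 14 bodies (43.8%) against 48.0%. Counts near the share over all genes are no result about the intestine. Median promoter window (1501 bp) and gene body (2036 bp against 2027 bp over all genes) were of like length to the rest, and the density of pooled summits was 0.215 per kb of promoter window against 0.333 over all genes, and 0.192 per kb of gene body against 0.281. No consensus summit lay in a listed promoter, against 0.411% of all genes, or in a listed gene body, against 0.0901%; 0 of 32 allows a share of up to 10.9%.

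**Figure D1:**
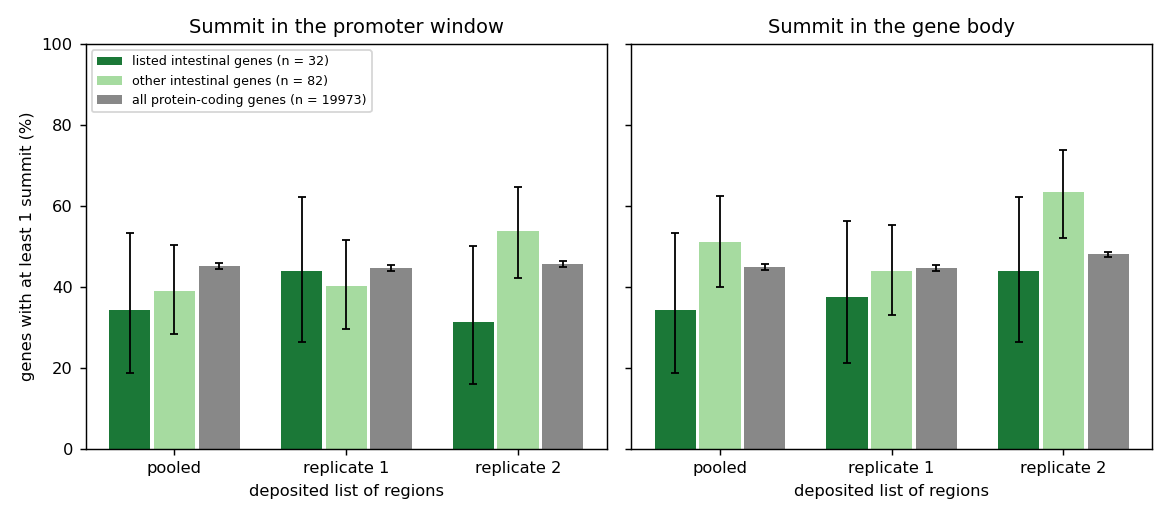
Share of genes (percent, vertical axis) with at least 1 region summit in the promoter window (left) or gene body (right) in each deposited list, for the 32 listed intestinal genes, 82 other intestinal genes and all 19973 protein-coding genes. Bars give the share and lines its exact 95% binomial interval; the listed genes sit at 31.2% to 43.8% and every one of their intervals takes in the bar for all genes.

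Among high-signal regions, elt-4, nhx-2 and pho-1 were the listed genes of the pooled list. Signal is the authors' own value for each region and was ranked within a list, with rank 1 the highest; values of different lists are on scales whose relation is not given. Of the 5000 highest pooled regions a summit lay in 1 listed promoter, that of elt-4 (3.12%, 0.0791% to 16.2%), against 10.6% of all genes, and in 2 bodies, those of nhx-2 and pho-1 (6.25%, 0.766% to 20.8%), against 11.3%. Both intervals take in the share over all genes. Among the 1000 highest pooled regions no listed promoter was found, against 2.89% of all genes, and 1 body, that of nhx-2, against 2.21%. Counts by replicate were as follows. Among the 5000 highest regions replicate 1 had 4 listed promoters (elt-4, ges-1, asp-3 and act-5, or 12.5%) against 9.68% of all genes and 0 bodies against 11.2%. Replicate 2 had 0 promoters against 10.6% and 4 bodies (cpr-6, pho-1, nhx-2 and erm-1, or 12.5%) against 12.2%.

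**Figure D2:**
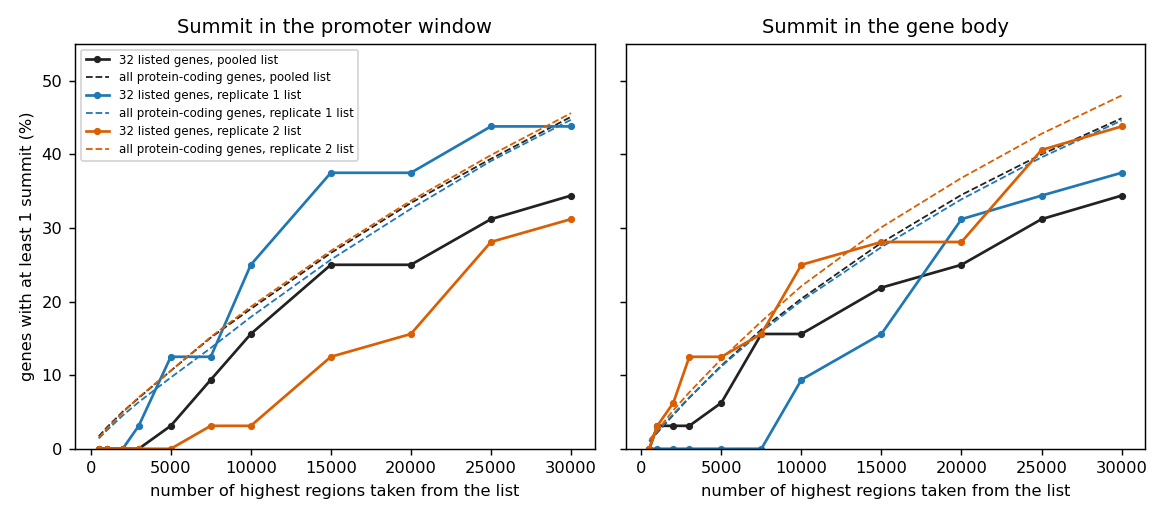
Share of genes (percent) with a summit in the promoter window (left) or gene body (right) as more regions are taken from each list in order of signal (horizontal axis, number of highest regions). Solid lines are the 32 listed genes and dashed lines all protein-coding genes; at 10000 regions the listed promoters stood at 15.6% (pooled), 25.0% (replicate 1) and 3.12% (replicate 2), with all genes at 19.0%, 17.9% and 19.3%.

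Among listed promoters, elt-4 and vit-5 were in both replicate lists. A promoter summit occurred in both replicate lists for 2 of the 32 genes (6.25%, 0.766% to 20.8%), against 25.2% of all genes, which lies above the interval. The replicate summits were within 200 bp of each other for vit-5 alone (3.12%, 0.0791% to 16.2%), against 13.4%, which lies inside the interval. Neither difference was tested. A further 8 promoters appeared in the pooled list and replicate 1 but not replicate 2, namely end-3, elt-7, ges-1, asp-3, act-5, erm-1, mtl-2 and fat-5. Only spl-1 appeared in the pooled list and replicate 2 but not replicate 1. Replicate 1 alone gave end-1, cpr-1, ifb-2 and ifc-2, and replicate 2 alone gave cpr-6, clec-85, nhx-2, ifd-2, acs-2, fat-6 and fat-7. These splits by list were not counted over all genes, so they are no result about the listed genes. Of the 12 pooled regions in these windows 9 (75.0%) had a replicate 1 summit and 3 (25.0%) a replicate 2 summit within 200 bp, while over the 10416 pooled regions in promoters of any gene the shares were 59.9% and 56.0%. In gene bodies, nhx-2, pept-1 and spl-1 had replicate summits within 200 bp of each other, 3 of 32 (9.38%, 1.98% to 25.0%) against 15.5% of all genes. Whether the replicates differed in depth is unknown, since the lists hold no read counts, and the part of depth in these differences was not tested.

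**Figure D3:**
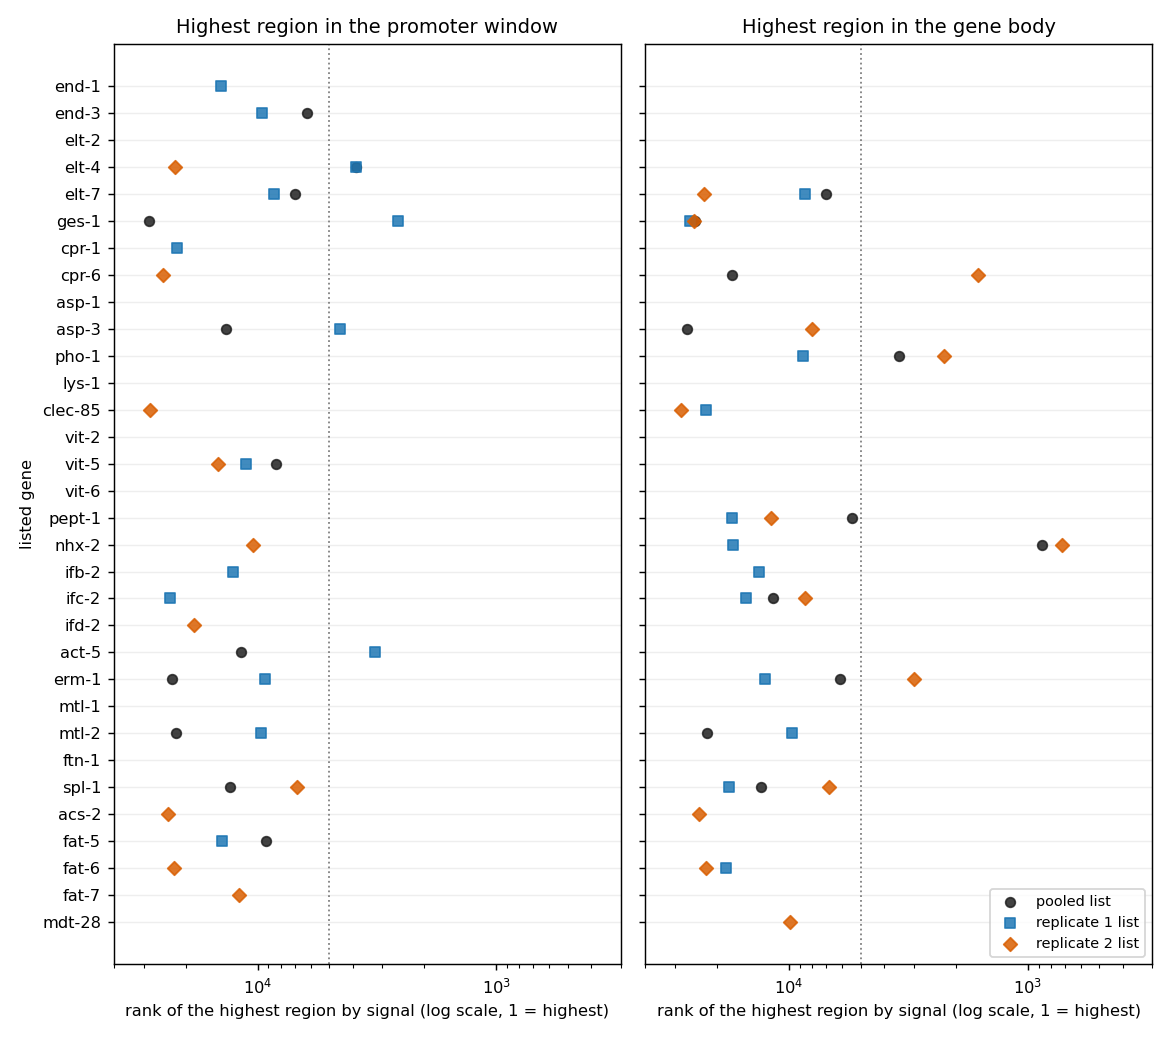
Rank of the highest region by signal (log scale, higher signal to the right) in the promoter window (left) and gene body (right) of each listed gene, in the pooled and both replicate lists. A missing symbol means no listed region, the dotted line marks rank 5000, and nhx-2 is the 1 gene with a symbol inside the 1000 highest, at ranks 872 and 715.

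The stretches of sequence below are those around the pooled summits that the text turns on: the listed gene body and promoter of highest pooled signal (nhx-2 and elt-4), the second body above rank 5000 (pho-1), vit-5 with its matching replicates, and a region upstream of elt-2. Each is read from the RefSeq WBcel235 sequence, the same assembly as ce11, on the strand of the gene and 5′ to 3′, with 100 bp on either side of the summit. The label intron at nhx-2 is that of the summit base only, and the stretch around it may reach into an exon. Capitals mark AAGTT and TGATAA on either strand (AACTT and TTATCA on the other); overlapping matches were allowed.
nhx-2, intron, chrII:7693079-7693279, minus strand: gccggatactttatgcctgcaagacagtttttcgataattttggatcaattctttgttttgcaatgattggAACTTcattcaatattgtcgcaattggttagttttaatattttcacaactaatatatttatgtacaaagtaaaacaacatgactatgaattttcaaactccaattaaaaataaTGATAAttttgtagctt
pho-1, chrII:5233363-5233563, minus strand: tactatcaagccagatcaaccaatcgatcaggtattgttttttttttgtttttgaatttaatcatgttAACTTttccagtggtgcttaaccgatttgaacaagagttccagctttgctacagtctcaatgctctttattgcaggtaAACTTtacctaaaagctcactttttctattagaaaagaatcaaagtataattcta
elt-4, upstream, chrX:10474718-10474918, plus strand: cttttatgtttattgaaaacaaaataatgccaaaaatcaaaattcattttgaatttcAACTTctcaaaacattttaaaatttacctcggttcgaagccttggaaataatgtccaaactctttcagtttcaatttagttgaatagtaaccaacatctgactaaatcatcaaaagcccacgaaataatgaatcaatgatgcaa
vit-5, upstream, chrX:3402974-3403174, plus strand: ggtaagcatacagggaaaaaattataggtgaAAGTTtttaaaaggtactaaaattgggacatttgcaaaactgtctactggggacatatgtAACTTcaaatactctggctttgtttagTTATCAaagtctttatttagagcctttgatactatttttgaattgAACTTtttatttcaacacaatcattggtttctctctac
elt-2, upstream, chrX:10479682-10479882, plus strand: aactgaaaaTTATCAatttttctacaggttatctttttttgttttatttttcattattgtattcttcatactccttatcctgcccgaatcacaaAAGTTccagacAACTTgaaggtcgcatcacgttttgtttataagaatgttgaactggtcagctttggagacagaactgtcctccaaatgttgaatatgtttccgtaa

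Among the endoderm GATA factors 3 of 5 had a pooled promoter summit, where 45.1% of all genes had one. Counts in groups this small, here and below, are no result about the group. The region at elt-4 (WBGene00001252, chrX:10475527-10475959), a short gene related to elt-2, had the highest signal of any listed promoter, 22.0 (rank 3856), with its summit 709 bp upstream of the start and inside the long noncoding RNA gene linc-83. It had signal 13.9 (rank 3888) in replicate 1 and 7.95 (rank 22230) in replicate 2, and the replicate summits lay 243 bp apart, on either side of the pooled one. Thus replicate 1 placed it among its 5000 highest regions and replicate 2 far below. Upstream of end-3 (WBGene00001311, chrV:14014695-14015980), which with end-1 starts the endoderm programme, the pooled region had signal 20.04 (rank 6201) at 445 bp from the start, with signal 11.3 (rank 9599) at 444 bp in replicate 1 and no region in the replicate 2 list. At end-1 the 1 promoter region was that of replicate 1, with signal 10.1 (rank 14178), 697 bp upstream. For elt-7 (WBGene00015981, chrV:4770670-4773086), which shares functions with elt-2, an intronic summit had signal 19.5 (rank 6962) in the pooled list and 11.7 (rank 8553) in replicate 1. It lay 543 bp and 537 bp downstream of the nearest start, and counted as a promoter summit only through a second start further downstream. With the outermost start of each gene only, 9 of the 32 genes had a pooled promoter summit, against 41.8% of all genes. Replicate 2 had another intron summit of elt-7, 1308 bp from that of replicate 1, with signal 7.89 (rank 22640).

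For elt-2 (WBGene00001250, chrX:10481240-10483441), the main regulator of the differentiated intestine, no list had a summit in the promoter window or gene body, and each list had one just beyond it. These summits lay 1458 bp upstream of the start by the pooled reads (signal 20.5, rank 5550), 1424 bp by replicate 1 (signal 8.10, rank 25067) and 1350 bp by replicate 2 (signal 9.10, rank 15385), between elt-4 and elt-2, whose starts are 5693 bp apart. The replicates thus agreed on the place more closely than at elt-4, at low ranks in each. A search prompted by this gene, and so chosen after its values were seen, found summits of all 3 lists between 1000 bp and 2000 bp upstream, with the replicates within 200 bp, at 1 of the 32 genes against 6.91% of all genes.

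**Figure D4:**
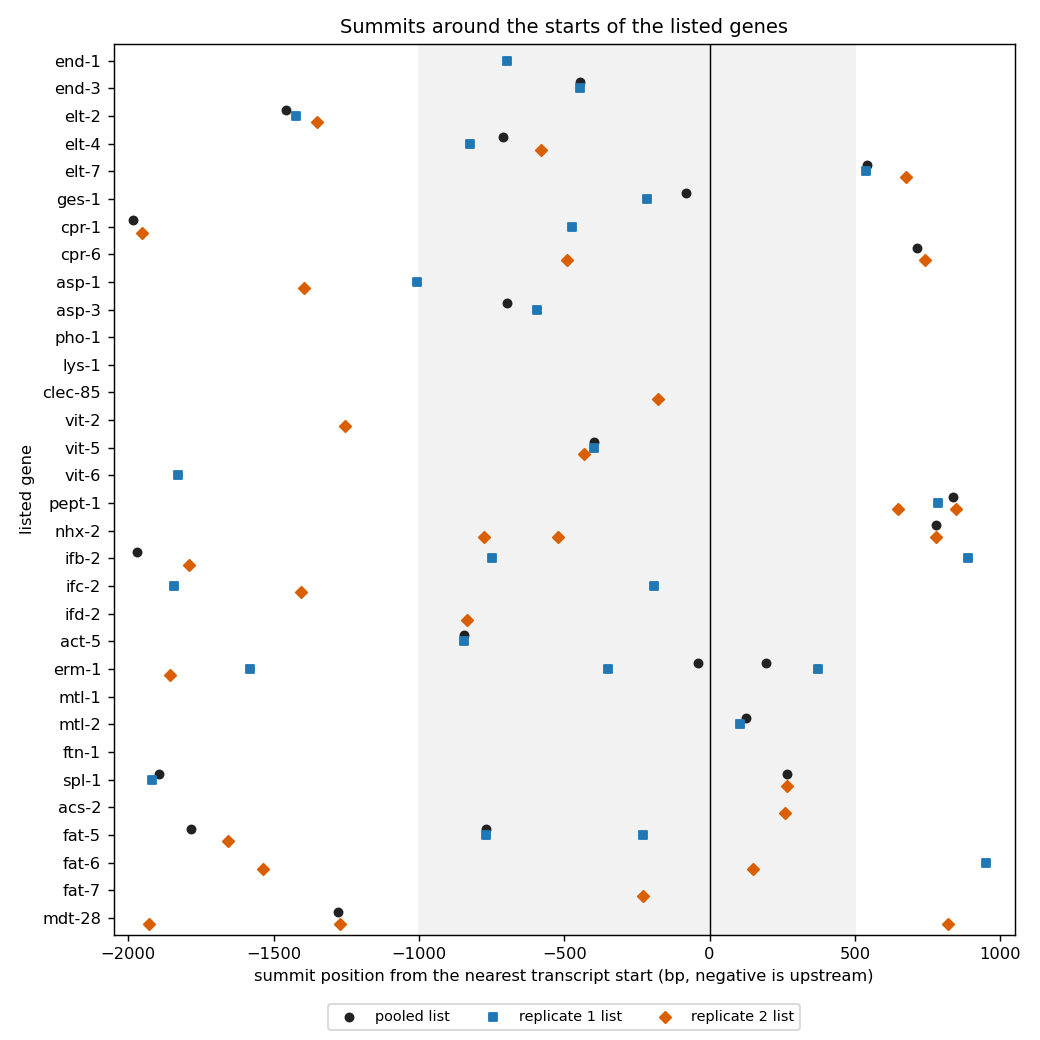
Summits within 2000 bp upstream of the starts of the listed genes or in the first 1000 bp of their bodies, by list (horizontal axis, bp from the nearest transcript start, negative upstream). The grey band is the promoter window of 1000 bp upstream to 500 bp downstream. Symbols of the 3 lists lie close together at vit-5 inside it, and at elt-2 upstream and pept-1 downstream outside it. The elt-7 promoter counts through a second start.

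The sodium-proton exchanger nhx-2 (WBGene00003730, chrII:7690711-7693957), which works with the peptide transporter pept-1 at the lumen, held the region of highest signal. In an intron, 778 bp downstream of the start, it had signal 27.9 (rank 872) in the pooled list and 17.1 (rank 715) in replicate 2, with the summits at the same base. Replicate 1 had no region there, its nearest summit lying 1328 bp away in the same gene with signal 9.45 (rank 17165). The high pooled rank therefore stood beside a high rank in 1 of the 2 replicates. A second pooled region of nhx-2, in an intron 2288 bp from the start, had signal 18.9 (rank 8130). Replicate 2 alone had nhx-2 promoter summits, 520 bp upstream (signal 10.2, rank 10487) and 775 bp upstream (signal 7.54, rank 25078). For pept-1 the body had a pooled region of signal 20.6 (rank 5424), 839 bp downstream of the start in a coding exon, with nearest replicate summits 54 bp away in replicate 1 (signal 9.43, rank 17262) and 8 bp away in replicate 2 (signal 7.18, rank 27826). Another replicate 2 region of pept-1 had signal 9.86 (rank 11876).

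Of the 6 digestive enzyme genes, 2 had a pooled promoter summit and 4 a pooled body summit, against 45.1% and 44.9% of all genes. In pho-1 (WBGene00004020, chrII:5233156-5235846), an intestinal acid phosphatase, a summit in a coding exon 2383 bp from the start had signal 22.5 (rank 3451) in the pooled list and 14.3 (rank 2241) at the same base in replicate 2, and none in replicate 1 within 730 bp. A weaker intronic region of pho-1 was listed in the pooled reads (signal 12.4, rank 29667) and in replicate 1 (signal 11.6, rank 8698). The promoter of the gut esterase ges-1 had signal 14.96 (rank 2590) in replicate 1, the highest promoter rank of any listed gene in any list, but signal 12.6 (rank 28589) in the pooled list and no replicate 2 region. Its replicate 1 summit lay 215 bp upstream and its pooled summit 81 bp upstream. The ges-1 body had an intronic summit at the same base in the pooled list (signal 13.5, rank 24617) and replicate 1 (signal 7.96, rank 25978). Replicate 2 had another intronic summit of ges-1, 1392 bp away (signal 7.55, rank 24981). The lysosomal aspartyl protease gene asp-3 had a promoter region of signal 16.6 (rank 13532) in the pooled list and 13.5 (rank 4513) in replicate 1, in a window shared with the start of sgca-1. For cpr-6, a cathepsin B-like protease gene, a coding exon summit had signal 15.1 (rank 1607) in replicate 2 and 15.3 (rank 17276) in the pooled list. At cpr-1, of the same family, the 1 promoter region was from replicate 1 (rank 21750), and the aspartyl protease gene asp-1 had none, its closest replicate 1 summit lying 1008 bp upstream, just outside the window.

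The 3 yolk protein genes, which are expressed in adult hermaphrodites, split with vit-5 on one side and vit-2 and vit-6 on the other. At vit-5 (WBGene00006929, chrX:3403471-3408603) the summits were 397 bp upstream by the pooled reads (signal 18.7, rank 8410), 398 bp by replicate 1 (signal 10.8, rank 11152) and 432 bp by replicate 2 (signal 9.26, rank 14623). All 3 lists thus placed a region of middling signal at the same spot. No list had a region in the window or body of vit-2 or vit-6. Near-identical copies limit what can be read at vit-5 and vit-2. Of the 31-base words in the vit-5 body 61.4% occurred more than once in the genome, and 24.0% in vit-2, against 0.0% in the body and window of vit-6. In the vit-5 promoter window, where the replicates match, the share was 8.43%, the highest of the 32 windows, followed by ifc-2 (8.22%) and ifd-2 (8.02%), while 28 of the 32 bodies and 29 of the 32 promoter windows were below 5%. The other bodies above 5% were ifc-2 (11.7%) and ifb-2 (8.31%). No source used here says whether reads with several matches were kept, so an empty vit-5 body is uncertain.

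Of the 5 genes of the brush border and the filament sheet beneath it, 2 had a pooled promoter summit, where 45.1% of all genes had one. At act-5, the microvillar actin, the summit 844 bp upstream had signal 17.2 (rank 11674) in the pooled list and 14.4 (rank 3208) at the same base in replicate 1, with no replicate 2 region. In erm-1, the ezrin-radixin-moesin linker of actin to membrane, the highest region was intronic, 1669 bp from the nearest start, with signal 20.1 (rank 6084) in the pooled list and 13.5 (rank 2984) in replicate 2 with its summit 14 bp away. Its promoter windows had pooled signals of 13.9 (rank 22812) and 13.1 (rank 26142), and replicate 1 signals of 11.4 (rank 9304) and 10.5 (rank 12629) at other summits. For ifc-2, an intermediate filament gene, an intron summit ranked 11623 in the pooled list (signal 17.3) and 8520 in replicate 2 (signal 10.8), with summits 3 bp apart. The other filament genes had promoter regions in 1 replicate each, ifb-2 in replicate 1 (rank 12620) and ifd-2 in replicate 2 (rank 18482).

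Of the 6 genes grouped under lipid metabolism, fat-5 and spl-1 had pooled promoter summits, where 45.1% of all genes had one. The desaturase gene fat-5 had signal 18.3 (rank 9188) in the pooled list and 10.1 (rank 14195) in replicate 1, both 768 bp upstream. Replicate 1 had another fat-5 promoter summit 228 bp upstream (signal 10.1, rank 14122). In spl-1, the sphingosine-phosphate lyase gene, the intronic summit 268 bp downstream had signal 16.7 (rank 13089) in the pooled list and 11.4 (rank 6809) in replicate 2. It also carried 3 further pooled body regions, with ranks 14381 to 19943, of which that at rank 14381 had summits of both replicates within 12 bp. The related desaturases fat-6 (rank 22329, in a window shared with ZK822.9) and fat-7 (rank 11955) and the acyl-CoA synthetase acs-2 (rank 23783) had promoter regions in replicate 2 only. The gene annotated as mdt-28 (WBGene00009223, chrV:15574098-15575405) was grouped with the lipid genes by name, and its function was not checked. Its 1 region in window or body was an intronic one of replicate 2 (signal 10.4, rank 9842). Pooled reads (rank 9712, 1278 bp upstream) and replicate 2 (rank 9353, 1271 bp) also had summits beyond the mdt-28 window, in an intron of atx-3.

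Among the metal-handling genes the metallothionein mtl-2 had a summit 127 bp downstream of its start with signal 14.1 (rank 21959) in the pooled list and 11.3 (rank 9670) in replicate 1. That summit also lay in the windows of T08G5.1 and srh-308, and the mtl-2 start is 3978 bp from that of end-3. The summits nearest the start of the metallothionein mtl-1 lay 1061 bp away in the pooled list and 1064 bp away in replicate 1. In window or body, mtl-1 and the ferritin ftn-1 had no region in any list. Neither did the lysozyme gene lys-1, and the C-type lectin gene clec-85 had a promoter region of rank 28218 in replicate 2 and a body region of rank 22232 in replicate 1 in a coding exon of the overlapping gene Y54G2A.49.

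In all, 10 of the 32 promoters were empty in all 3 lists (31.2%), against 32.6% of all genes, and 7 genes had no region in window or body in any list (21.9%, 9.28% to 40.0%), against 19.1%. The 7 were elt-2, asp-1, lys-1, vit-2, vit-6, mtl-1 and ftn-1. The other 3 empty promoters, those of pho-1, pept-1 and mdt-28, belonged to genes with a body region. Absence from a list is not a measured zero, since each list stops at 30000 regions and its lowest signal was 12.3 for the pooled reads, 7.42 for replicate 1 and 6.94 for replicate 2.

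Positions of the pooled promoter summits were set beside those over all genes. Of the 12 regions 8 (66.7%) were upstream of the nearest start, 4 (33.3%) were within 250 bp and the median distance was 421 bp, where all 11919 pairs of a gene and a summit in its window gave 69.5%, 35.5% and 360 bp, in a window with more sequence upstream than downstream. By annotation of protein-coding genes 7 were intergenic, 3 intronic and 2 in coding exons, and over all pooled promoter regions 43.4% were intergenic, 32.1% intronic and 16.5% in coding exons. The 18 body regions comprised 11 in introns, 5 in coding exons and 2 in a 3′ UTR. This split was not counted over the bodies of all genes, so it is no result about the listed genes. Body regions were commoner in longer genes. Among listed genes those with a pooled body region had a median length of 3247 bp and those without 1815 bp, and over all genes the share rose from 19.2% up to 1500 bp to 89.2% above 6000 bp, while 1 of 9 and 2 of 2 listed genes in those classes had one. By chromosome, 14 of the 32 genes lie on V and 9 on X, where 41.3% and 42.5% of all genes had a pooled promoter summit, and 5 and 3 listed genes did. At the chromosomes' own rates 13.8 of 32 genes would have one, where 11 did.

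The intestinal GATA word was common upstream of these genes, whether or not a region was listed. TGATAA, on either strand, occurred within 300 bp upstream of a start in 23 of the 32 genes (71.9%) and in 35.7% of all protein-coding genes. Of these 23 genes 6 had a pooled promoter summit, and of the 9 without the word 5 did, while over all genes the shares were 47.1% with the word and 44.0% without. AAGTT occurred in the same stretch of 28 listed genes (87.5%) and 75.0% of all genes. Of these 28 genes 8 had a pooled promoter summit, and of the 4 without AAGTT 3 did. Over all genes the shares were 45.8% with AAGTT and 43.0% without. Within 150 bp of the summit AAGTT was found at 12 of the 12 pooled promoter regions (73.5% to 100%) and TGATAA at 5 (41.7%, 15.2% to 72.3%), where all 30000 pooled regions gave 75.0% and 25.5%. Within 50 bp AAGTT was at 5 of the 12 (41.7%), against 38.4%. These words match by letters alone, which makes none of them a bound site.

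The 150 bp directly upstream of the starts of elt-2, vit-2 and ftn-1, genes with no listed region in this stretch, are shown for comparison with the regions above, from the same assembly, on the strand of the gene, with the same words in capitals. Each holds TGATAA on 1 strand, and in elt-2 it overlaps an AAGTT.
elt-2, chrX:10481090-10481239, plus strand: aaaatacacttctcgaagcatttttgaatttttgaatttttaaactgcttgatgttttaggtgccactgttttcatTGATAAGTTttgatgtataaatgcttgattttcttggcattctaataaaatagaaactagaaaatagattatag
vit-2, chrX:5100892-5101041, plus strand: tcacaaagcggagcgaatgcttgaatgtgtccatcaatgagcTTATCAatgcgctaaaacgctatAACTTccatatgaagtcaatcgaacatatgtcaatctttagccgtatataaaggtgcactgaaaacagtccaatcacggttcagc
ftn-1, chrV:7547580-7547729, minus strand: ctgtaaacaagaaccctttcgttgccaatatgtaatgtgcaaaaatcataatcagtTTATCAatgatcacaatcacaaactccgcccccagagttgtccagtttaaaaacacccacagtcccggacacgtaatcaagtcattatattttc

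The rest of the intestinal programme was counted in the same windows. Of 84 further genes listed by function, 82 were found by name, among them specification inputs, other gut transcription factors, proteases, filament and polarity genes, lipid enzymes and lysozymes. A pooled promoter summit lay at 32 of them (39.0%, 28.4% to 50.4%), against 45.1% of all genes. A body summit lay at 42 (51.2%, 39.9% to 62.4%), against 44.9%. Their bodies were longer than the rest, with a median of 3132 bp. In replicate 1 the promoters numbered 33 (40.2%), against 44.7% of all genes, and the bodies 36 (43.9%), against 44.6%. In replicate 2 the promoters numbered 44 (53.7%), against 45.6% of all genes, and the bodies 52 (63.4%, 52.0% to 73.8%), against 48.0%. Among the 5000 highest regions, bodies numbered 8 in the pooled list (9.76%, 4.31% to 18.3%), against 11.3% of all genes and 6.25% of the listed 32. In replicate 1 they numbered 16 (19.5%, 11.6% to 29.7%), against 11.2% of all genes and 0 of the listed 32. In replicate 2 they numbered 15 (18.3%, 10.6% to 28.4%), against 12.2% of all genes and 12.5% of the listed 32. A promoter summit in both replicate lists was found for 27 (32.9%, 22.9% to 44.2%), against 25.2% of all genes and 6.25% of the listed 32. The difference between these genes and the listed ones was not tested. Both replicates had summits within 200 bp at 12 promoters (14.6%, 7.80% to 24.2%), against 13.4% of all genes. Among the 1000 highest pooled regions, 2 of the 82 genes had a promoter summit (2.44%, with 2.89% over all genes) and 2 a body summit (2.44%, with 2.21%). These were promoter summits of daf-16, the FOXO factor of insulin signalling (signal 37.9, rank 122, 476 bp upstream), and of ajm-1, an apical junction gene (signal 28.3, rank 798, 678 bp upstream of the nearest start and also within the gene body), and a body summit of eps-8, a microvillar actin regulator (signal 30.4, rank 487). Neither daf-16 nor ajm-1 is restricted to the intestine, and none of the 82 was at a consensus peak.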

How the data were processed

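ChIP-seq of tagged ZTF-11 was made in 2 biological replicates with 1 technical replicate each, per the labels. Per the deposited README texts, each region list was derived from 1 replicate's alignments, or those of both, with a further file those texts do not describe, as input for the irreproducible discovery rate procedure, and the consensus from the 3 lists. The deposited signal (column 7) is the authors' own and was used within a list only. The deposited score (column 9) was below 0 for 80.0% of pooled regions and served in 1 alternative ranking. Aligner, peak caller, thresholds and control strain are not given in the sources used here. Depth is unknown, and intervals cover counting of genes or regions only.

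The ce11 lists were used with the Ensembl release 115 annotation and the RefSeq WBcel235 sequence; no region ran past a chromosome end (0). Summits are start plus offset plus 1, counted from 1. The 23 mitochondrial regions of replicate 1 were left out before ranking. Starts are those of protein-coding transcripts. The ce10 lists were not used here. The window code was tested on simulated positions. Python 3.11.15, pandas 2.3.3 and scipy 1.17.1 were used. With 1 group no test was made. All 32 genes are named. By rule, values in each list are given for up to 12 genes of highest pooled promoter signal (11 had one). Genes among the 1000 highest regions of any list and the GATA factors were covered likewise. Some further regions of these genes are left out. For pho-1, pept-1, cpr-6, ifc-2 and the weaker genes, fuller values were given after the values were seen. Genes and lists were chosen with earlier results of these data known.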

Additional observations from a re-analysis of the deposited data

How the results depend on the processing

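Of 48 alternative values 31 stayed close to the value reported, counts within 1.5 times, word shares within their interval and the rest within 1 SD between the 2 replicate lists, and 17 moved. With a window of 500 bp upstream the promoter count fell from 11 to 6 (34.1% of all genes). Its number among the 5000 highest regions fell from 1 to 0 (7.7% of all genes). The 10000 highest regions gave 5 promoters (19.0% of all genes) and 5 bodies (20.4%). The 1000 highest gave 0 promoters (2.89%) and 1 body (2.21%), and the consensus 0 promoters (0.411%). These settings changed the number of regions or the width of the window, and the shares over all genes changed as well. Leaving out a replicate means using the other's list. Among the 5000 highest, the promoter count was 0 without replicate 1 (10.6% of all genes) and 4 without replicate 2 (9.68%). Over all regions, the promoter count was 10 without replicate 1 (45.6% of all genes) and 14 without replicate 2 (44.7%). The body count was 14 without replicate 1 (48.0%) and 12 without replicate 2 (44.6%). In the same lists the median signal of the highest promoter region was 8.24 to 11.3 against 17.2 (the lists differ in scale). The density per kb of promoter window was 0.287 in replicate 1 and 0.197 in replicate 2, against 0.327 and 0.332 over all genes. Per kb of gene body it was 0.160 and 0.214, against 0.279 and 0.289. The AAGTT share was 87.5% of 16 regions in replicate 1 and 90.9% of 11 in replicate 2, against 75.4% and 73.5% of all regions of those lists. The TGATAA share was 43.8% and 36.4%, against 26.0% and 25.2%. Each interval of these listed shares took in the share over all regions. Matching replicate summits within 500 bp gave 2 promoters (18.9% of all genes), and within the 5000 highest of each 0 (1.46%). AAGTT within 50 bp was at 41.7%, against 38.4% of all pooled regions. What moved these values was not examined. No paired analysis was possible because the design holds a single group. With no read counts deposited in these lists, no limit of depth can be stated.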
